A study of Arabidopsis thaliana with 12 samples.

Results

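The results below concern 1 contrast computed on all 12 libraries: the genotype difference in imbibed seeds minus the genotype difference in dry seeds, the interaction of genotype and imbibition, gene by gene. It was computed for 18897 of the 32833 genes listed, those with enough counts to be tested. RNA was sequenced from freshly harvested seeds of Arabidopsis thaliana in the Col-0 background. The wild type and a line labelled as an ERF4 knockout (erf4) were each sampled as dry seeds and after 6 h of imbibition, the uptake of water, on wet filter paper, with 3 libraries per group. Total gene counts per library lay between 31787283 and 42590777, at which 3 counts correspond to 0.0704 to 0.0944 CPM (counts scaled to library size). Separate plants or harvests are not mentioned in the labels, and the p-values therefore cover only the variation among these libraries, part of which may be technical. Storage protein genes, which mark seeds, were abundant in every library, with a summed level of 71700 to 264000 CPM over 16 genes. Endosperm genes, which mark the tissue around the embryo, summed over 13 genes to 16330 to 30050 CPM in dry Col-0 and 4064 to 17320 CPM in dry erf4, and to 7128 to 9963 and 1158 to 7715 CPM after imbibition. In this sum replicate 1 of erf4 was the lowest in both states, and the part of this in the results below was not tested. The median member did not share the gap of the sum. Over the 6 endosperm genes tested, the median difference of erf4 minus Col-0 (log2) was 0.02 in dry and -0.07 in imbibed seeds. For 3 of the 13 no library held a count. These are bulk samples, in which fewer cells of a type and less RNA per cell cannot be told apart.

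ERF4 is a member of the ERF family of transcription factors, some of which act downstream of the gaseous hormone ethylene, and carries a repressor motif. Freshly harvested Arabidopsis seeds are usually dormant. Abscisic acid (ABA) holds them in that state and gibberellin releases it. Dry seeds store transcripts made during maturation, among them those of late embryogenesis abundant (LEA) and heat shock proteins, which protect cells during drying. Within hours of imbibition many of these stored transcripts decline while genes of translation and growth are switched on. An interaction is a difference between the genotypes in this change.

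ERF4 (AT3G15210, chromosome 3, 5121303 to 5122562, plus strand, TAIR10) was examined first, because its level checks the labels. Its level in libraries labelled erf4 was 3.88, 9.0 and 15.3 CPM in dry seeds and 1.67, 7.03 and 14.9 CPM in imbibed seeds. The Col-0 libraries held 12.5 to 15.9 CPM in dry and 15.7 to 21.0 CPM in imbibed seeds. Replicate 3 thus lay within the Col-0 range in dry seeds and just under it in imbibed seeds, against the label. Other genes set this replicate apart from Col-0. In imbibed seeds the genotype difference was called for 4 genes, IRT3, RPL18AA, AT1G75945 and HEI10. Replicate 3 held 38.7, 13.3, 10.6 and 3.74 CPM of them, outside the Col-0 range for each, as were replicates 1 and 2. These genes were picked by that difference, and what this means for the label was not tested. Below, erf4 means the libraries labelled so. The interaction of ERF4 itself was -0.60 ± 0.86 (log2, SE, 3 libraries per group; edgeR adjusted p = 0.848).

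No gene passed the test of the interaction in the model of the 4 group means. At an adjusted p under 0.05 edgeR's quasi-likelihood test called 0 of 18897 genes (0%), and the smallest adjusted p was 0.0723. An unadjusted p under 0.05 was reached by 1980 genes (10.5%), where 945 would be expected by chance. Of these, 812 (4.3%) had a positive interaction, meaning that the level in erf4 relative to Col-0 stood higher in imbibed than in dry seeds, and 1168 (6.18%) a negative one. These counts depend on single libraries: leaving out dry erf4 replicate 1 gave 1382 positive and 1531 negative genes, and leaving out replicate 1 of imbibed Col-0 gave 535 and 917. On the same counts limma-voom called 0 genes and DESeq2 called 191 (1.05% of the 18163 genes to which it gave an adjusted p), 86 positive (0.473%) and 105 negative (0.578%). In edgeR, a replicate block within each genotype, which pairs same-numbered dry and imbibed libraries, called 594 genes (163 positive, 431 negative). The labels do not state such pairs, so the count of 0 holds for the unpaired model. A p that misses the threshold does not show that a gene responded alike in both genotypes. The genes and groups below are therefore described by their levels in each library, with an unadjusted p under 0.05 as a looser mark, unadjusted for the number of genes.

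Across all genes the response to imbibition was similar in the libraries of both labels (r = 0.84 between the 2 log2 responses, across genes, which are not independent replicates). The 2 genotype differences, in dry and in imbibed seeds, were less alike (r = 0.27 across the same genes). For reading the single genes below, edgeR called the response to imbibition at an adjusted p under 0.05 in 52.5% of genes in Col-0 (27.2% up, 25.2% down) and in 55.5% in erf4 (28.4% up, 27.2% down). The genotype difference was called in 1.1% of genes in dry seeds (0.519% higher and 0.577% lower in erf4) and in 0.0212% in imbibed seeds (0.0159% higher and 0.00529% lower). The median interaction over all genes was -0.01 and the median absolute interaction 0.3. Among the 812 genes with a positive interaction at an unadjusted p under 0.05, 688 (84.7%) stood lower in erf4 in dry seeds and higher in imbibed seeds. Among the 1168 with a negative one, 991 (84.8%) stood higher in dry and lower in imbibed seeds. By its construction the contrast is larger where the signs are opposite, and 42.2% of all genes had opposite signs.

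**Figure D1:**
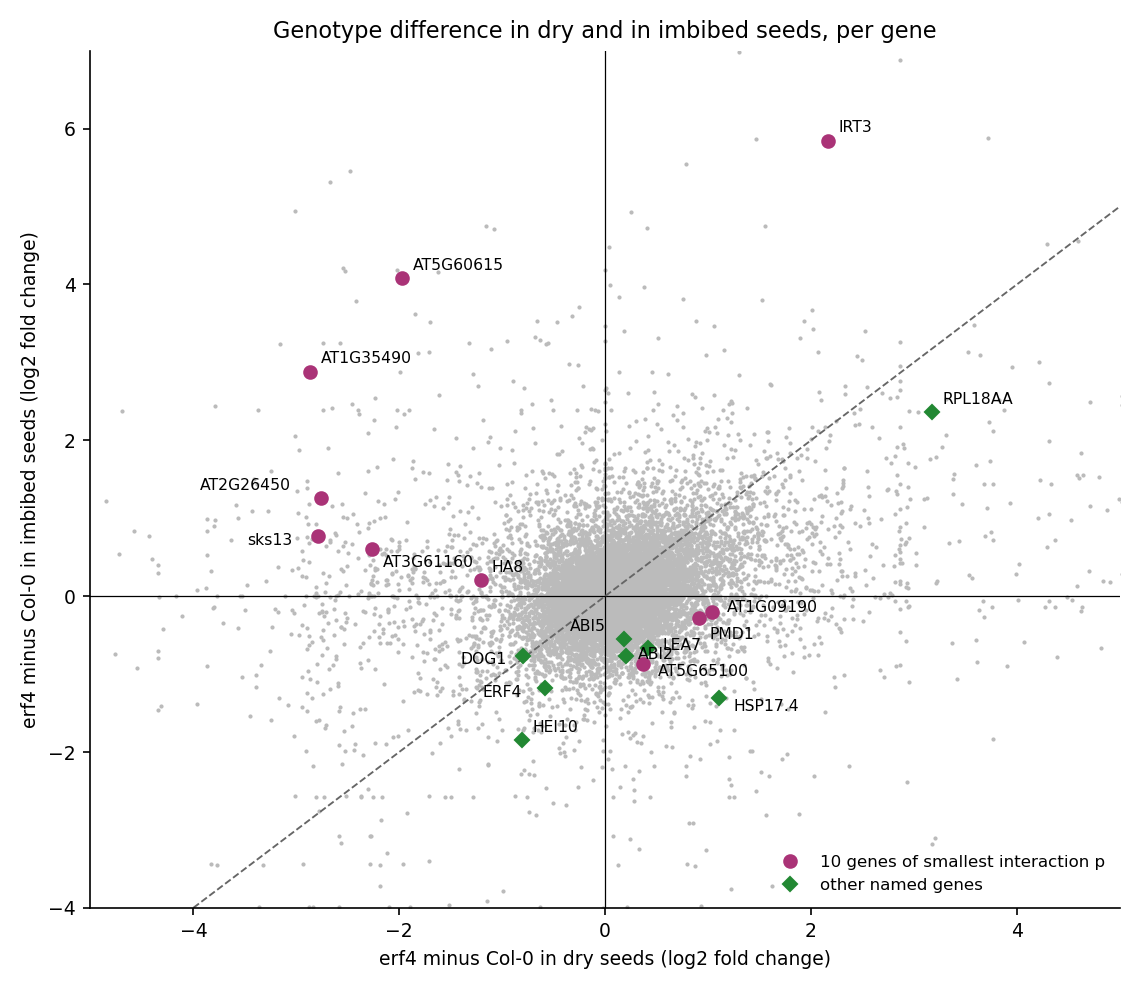
Genotype difference (erf4 minus Col-0, log2) of each tested gene in dry seeds (horizontal) and in imbibed seeds (vertical). Genes on the dashed line have no interaction. IRT3 lies above the line at 2.16 and 5.85, the pollen gene sks13 at the left at -2.79 and 0.77, and HSP17.4 below the line at 1.11 and -1.31. Genes outside the axes, AT1G75945 among them, are not drawn, and values of genes near 0 counts in a group are fitted ones.

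IRT3 (AT1G60960, chromosome 1, 22445299 to 22447299, minus strand) had the smallest p. It encodes a ZIP family transporter known to carry zinc and iron. In imbibed seeds it stood at 46.8, 24.5 and 38.7 CPM in the libraries labelled erf4, against 0.451, 0.709 and 0.74 CPM in Col-0. In dry seeds it stood at 4.13, 3.15 and 3.72 CPM in erf4, against 1.15, 0.346 and 0.987 CPM in Col-0. The groups did not overlap in either state, and the gap was widest after imbibition. IRT3 rose 9.96-fold on imbibition in erf4 (log2 3.32 ± 0.33, edgeR adjusted p = 3.4e-06), while the Col-0 response of -0.37 ± 0.40 was not called (edgeR adjusted p = 0.463). The interaction was 3.68 ± 0.51 (edgeR adjusted p = 0.0723; DESeq2 adjusted p = 3.72e-09). The Col-0 values rest on 12 to 37 counts per library. Over 24 alternative settings the interaction of IRT3 ranged from 3.34 to 4.07, and 6 of them called it.

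The promoter of IRT3 is shown because the gene led the interaction and because of the element in capitals. They mark the zinc deficiency response element (ZDRE), a palindrome known in Arabidopsis to be bound by the bZIP19 and bZIP23 factors. The match stands 25 bases before the annotated gene start, in the window from 250 bases before to 50 bases after that start (chr1:22447250-22447549, minus strand, TAIR10). The search for this element was chosen after the IRT3 values had been seen.
IRT3: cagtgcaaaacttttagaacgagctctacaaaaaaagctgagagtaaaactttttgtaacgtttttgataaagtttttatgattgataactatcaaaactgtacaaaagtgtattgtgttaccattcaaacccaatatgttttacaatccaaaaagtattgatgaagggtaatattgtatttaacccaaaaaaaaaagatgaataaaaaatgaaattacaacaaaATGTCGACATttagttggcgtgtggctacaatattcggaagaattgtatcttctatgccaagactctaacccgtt
The same element was present in 14 of 18791 promoters of tested nuclear genes (0.0745%). Of the 27 zinc and iron transport genes tested, the other with a match was ZIP4, a zinc transporter gene, whose interaction was 0.16 ± 0.26 (edgeR adjusted p = 0.87). The match is a description of the letters and says nothing of what binds there.

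Of the 27 zinc and iron transport genes, 3 had a positive interaction at an unadjusted p under 0.05 (11.1%, against 4.3% of all genes) and 0 a negative one, and the median interaction of the list was -0.02. Beside IRT3 they were HMA4, a zinc export ATPase gene, at 2.85 ± 0.93 (edgeR adjusted p = 0.318), and NRAMP3, a gene for metal release from the vacuole, at 1.37 ± 0.52 (edgeR adjusted p = 0.379). HMA4 was low throughout, at 0.049 to 1.79 CPM. NRAMP3 stood at 11.1, 5.48 and 11.0 CPM in imbibed erf4 and at 4.19, 8.7 and 6.04 CPM in imbibed Col-0, so that these groups overlapped.

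The other genes of smallest p fell into 2 patterns. Of the 10, those with a positive interaction other than IRT3 were genes of high level in dry Col-0, lower in dry erf4, and low in imbibed seeds of both labels. Beside sks13, described with the pollen genes below, they were AT2G26450 (a pectin methylesterase and inhibitor family gene), AT3G61160 (a protein kinase gene), AT5G60615 (a defensin-like gene), AT1G35490 (a bZIP family gene) and HA8. AT2G26450 stood at 8.66 to 11.5 CPM in dry Col-0 and at 0.888 to 2.35 CPM in dry erf4. After imbibition it stood at 0.1 to 0.197 CPM in Col-0 and at 0.271 to 0.532 CPM in erf4, which did not overlap. These imbibed values rest on 4 to 8 and 13 to 24 counts per library. The interaction of AT2G26450 was 4.02 ± 0.62 (edgeR adjusted p = 0.0763). AT3G61160, which overlaps a gene on the other strand, stood at 12.2 to 22.5 CPM in dry Col-0, at 1.82 to 4.85 CPM in dry erf4 and at 1.83 to 3.5 CPM after imbibition.

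For AT5G60615 and AT1G35490 no fold is given, because imbibed Col-0 held 0 counts in 2 of 3 libraries for each. AT5G60615 (which overlaps a gene on the other strand) had 212 to 428 counts in dry Col-0, 38 to 123 in dry erf4, and 5 to 12 in imbibed erf4. AT1G35490 had 174 to 442 counts in dry Col-0, 16 to 66 in dry erf4, and 4 to 10 in imbibed erf4. HA8 (AT3G42640), a plasma membrane proton pump gene that overlaps a gene on the other strand, was the one with the highest level after imbibition. It stood at 44.8, 30.5 and 37.2 CPM in dry Col-0 and at 13.1, 16.6 and 19.1 CPM in dry erf4, which did not overlap. After imbibition it stood at 8.86 to 11.0 CPM in Col-0 and at 10.9 to 12.2 CPM in erf4, which did. Its interaction was 1.41 ± 0.25 (edgeR adjusted p = 0.159; DESeq2 adjusted p = 0.000491).

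The 3 with a negative interaction rose on imbibition in Col-0 and were not called as responding in erf4. AT5G65100 belongs to the EIN3 family, whose best known members switch on ethylene responses. It stood at 20.7, 21.1 and 18.0 CPM in dry Col-0 and at 51.6, 54.3 and 60.6 CPM in imbibed Col-0, a 2.78-fold rise (edgeR adjusted p = 5.74e-06). In erf4 it stood at 25.8, 27.7 and 24.0 CPM in dry and at 27.3, 25.5 and 38.4 CPM in imbibed seeds (1.18-fold, edgeR adjusted p = 0.201). The genotypes were apart in both states, erf4 above Col-0 in dry seeds and below it in imbibed seeds, and the interaction was -1.24 ± 0.22 (edgeR adjusted p = 0.159; DESeq2 adjusted p = 0.000491). The gene overlaps AT5G65090 on the other strand, whose reads cannot be told apart from it here.

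PMD1, a gene of peroxisome and mitochondrion division, and AT1G09190, a tetratricopeptide repeat gene, also rose in Col-0, but their genotype gap lay mainly in dry seeds (0.92 and 1.04, against -0.28 and -0.20 in imbibed seeds) and that of AT5G65100 mainly in imbibed seeds (-0.87, against 0.37). PMD1 stood at 7.22 to 7.93 CPM in dry Col-0 and at 12.9 to 16.2 CPM in dry erf4, and at 15.8 to 23.4 CPM over the imbibed libraries of both. AT1G09190 stood at 2.74 to 3.32 CPM in dry Col-0 and at 6.05 to 6.74 CPM in dry erf4. After imbibition it stood at 8.66 to 9.1 CPM in Col-0 and at 7.16 to 8.18 CPM in erf4. These did not overlap, and the order of the genotypes was reversed. For both, the dry libraries labelled erf4 stood between the dry and the imbibed levels of Col-0. The interactions were -1.20 ± 0.22 and -1.24 ± 0.23 (edgeR adjusted p = 0.164 each).

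**Figure D2:**
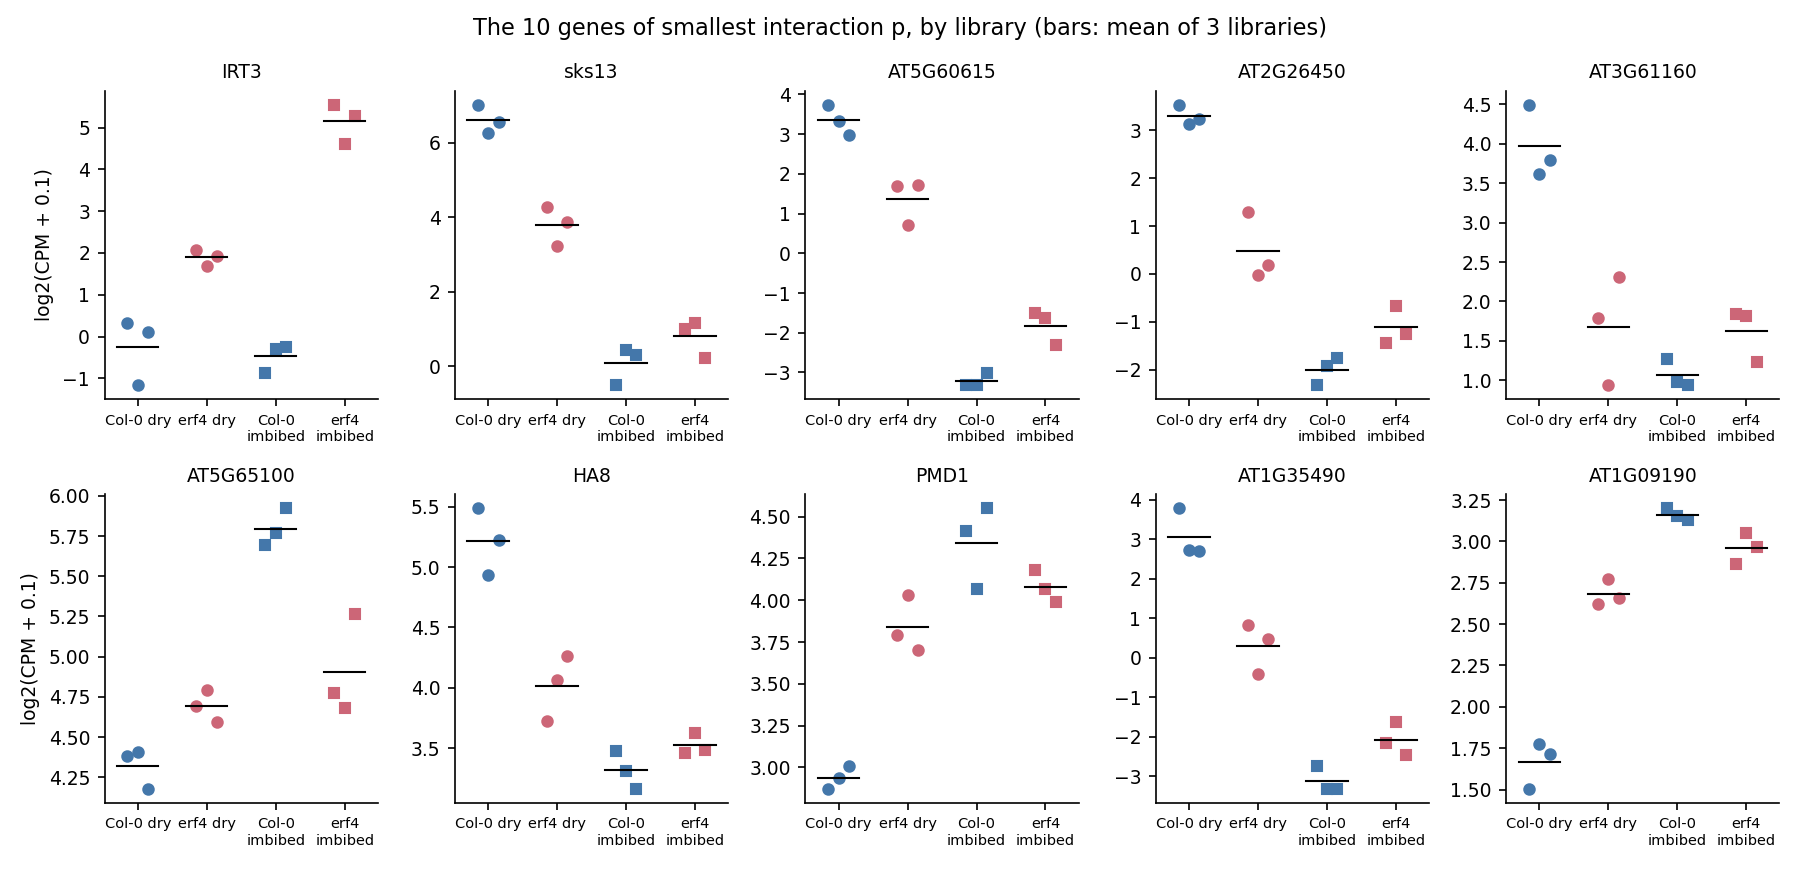
Levels of the 10 genes of smallest interaction p in each of the 12 libraries, as log2(CPM + 0.1), with a bar at the mean of 3. IRT3 alone shows its highest level in imbibed erf4 (24.5 to 46.8 CPM), AT5G65100 its highest in imbibed Col-0 (51.6 to 60.6 CPM), and HA8 and sks13 theirs in dry Col-0.

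LEA protein genes had the lowest median interaction of the lists of genes by function (-0.89 over 17 tested of 20 listed, against -0.01 over all genes). An unadjusted p under 0.05 with a negative interaction was reached by 9 of 17 (52.9%, against 6.18% of all genes), and none had a positive one. Without dry erf4 replicate 2 that count was 4 and the median -0.63; this library had the highest summed LEA level, 84760 CPM, against 52210 and 48040 CPM in the other dry erf4 libraries. edgeR called 0 of 17 and DESeq2 called 3, all negative (DESeq2 called 0.578% of all genes negative). In dry seeds the median member stood 0.42 higher in erf4 than in Col-0, and in imbibed seeds 0.55 lower (median -0.55). In both genotypes the median member declined on imbibition, with a log2 response of -1.05 in Col-0 and -1.7 in erf4. In imbibed seeds all 3 erf4 libraries stood below all 3 Col-0 libraries for 7 of 17 genes, against 12.7% of all genes. The same held for 10 of 21 lipid mobilisation and 7 of 19 circadian clock genes, with 1 and 0 the other way. Those lists had median interactions of 0.05 and -0.01, so such separation was not particular to lists with a negative median.

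LEA7 (AT1G52690, chromosome 1, 19619724 to 19621534, plus strand), which encodes a LEA family protein, had the smallest p of the list. It stood at 1704, 2170 and 2037 CPM in dry Col-0 and at 2403, 3137 and 2363 CPM in dry erf4. In imbibed seeds it was at 963.5, 696.4 and 793.1 CPM in Col-0 and at 555.4, 441 and 546 CPM in erf4. Thus erf4 was above Col-0 in dry seeds and below it in imbibed seeds, with no overlap in either state. The transcript fell to 0.415 of its dry level in Col-0 and to 0.195 in erf4, and the interaction was -1.09 ± 0.26 (edgeR adjusted p = 0.235; DESeq2 adjusted p = 0.00668). LEA7 overlaps AT1G52695 on the other strand.

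Its promoter is shown because it carries 3 copies of the ABA response element (ABRE, searched as ACGTGNC on both strands), in capitals, which stand 217, 179 and 78 bases before the gene start (chr1:19619474-19619773, plus strand, TAIR10).
LEA7: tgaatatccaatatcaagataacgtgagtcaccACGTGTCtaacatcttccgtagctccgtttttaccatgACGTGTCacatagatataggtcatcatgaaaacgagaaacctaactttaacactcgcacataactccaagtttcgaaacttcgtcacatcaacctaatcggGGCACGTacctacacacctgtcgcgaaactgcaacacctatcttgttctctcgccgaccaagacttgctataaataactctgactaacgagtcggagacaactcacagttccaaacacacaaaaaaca
This element was present in the promoters of 11 of 17 LEA genes (64.7%), 11 of 32 ABA signalling genes (34.4%) and 11.9% of all tested nuclear genes. It was in none of the promoters of the 10 genes of smallest p. The GCC box (GCCGCC), which ERF factors are known to bind, was in 2.84% of all promoters, in none of the 17 LEA promoters and in none of those 10. That says only that these letters are not in these windows.

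ECP63 and RAB18 had interactions of the same sign with more spread. ECP63, an embryo protein gene that rose by 0.77 (log2) on imbibition in Col-0 and fell by 0.84 in erf4, stood at 312 to 618 CPM in dry Col-0 and at 556 to 931 CPM in imbibed Col-0, and in erf4 at 467 to 1027 CPM dry and 340 to 469 CPM imbibed (interaction -1.61 ± 0.43, edgeR adjusted p = 0.264). RAB18 (AT5G66400), a dehydrin gene and a classic ABA target, was more abundant. It stood at 10350 to 18250 CPM in dry Col-0 and at 13830 to 27690 CPM in dry erf4, then at 2445 to 4447 CPM in imbibed Col-0 and at 1668 to 2169 CPM in imbibed erf4 (interaction -1.39 ± 0.46, edgeR adjusted p = 0.319). In dry seeds the highest RAB18 value came from erf4 replicate 2, and the other two erf4 libraries lay within the Col-0 range. For EM1, an early maturation gene, the interaction was -1.38 ± 0.50 (edgeR adjusted p = 0.366), and the genotypes overlapped in both states. At the other end of the list SAG21 stood at 0.12 ± 0.92 and ATECP31 at -0.22 ± 0.30. Leaving out both erf4 libraries of 1 replicate number gave list medians of -1.01, -0.78 and -0.90, the last without replicate 3, whose ERF4 level was near that of Col-0.

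**Figure D3:**
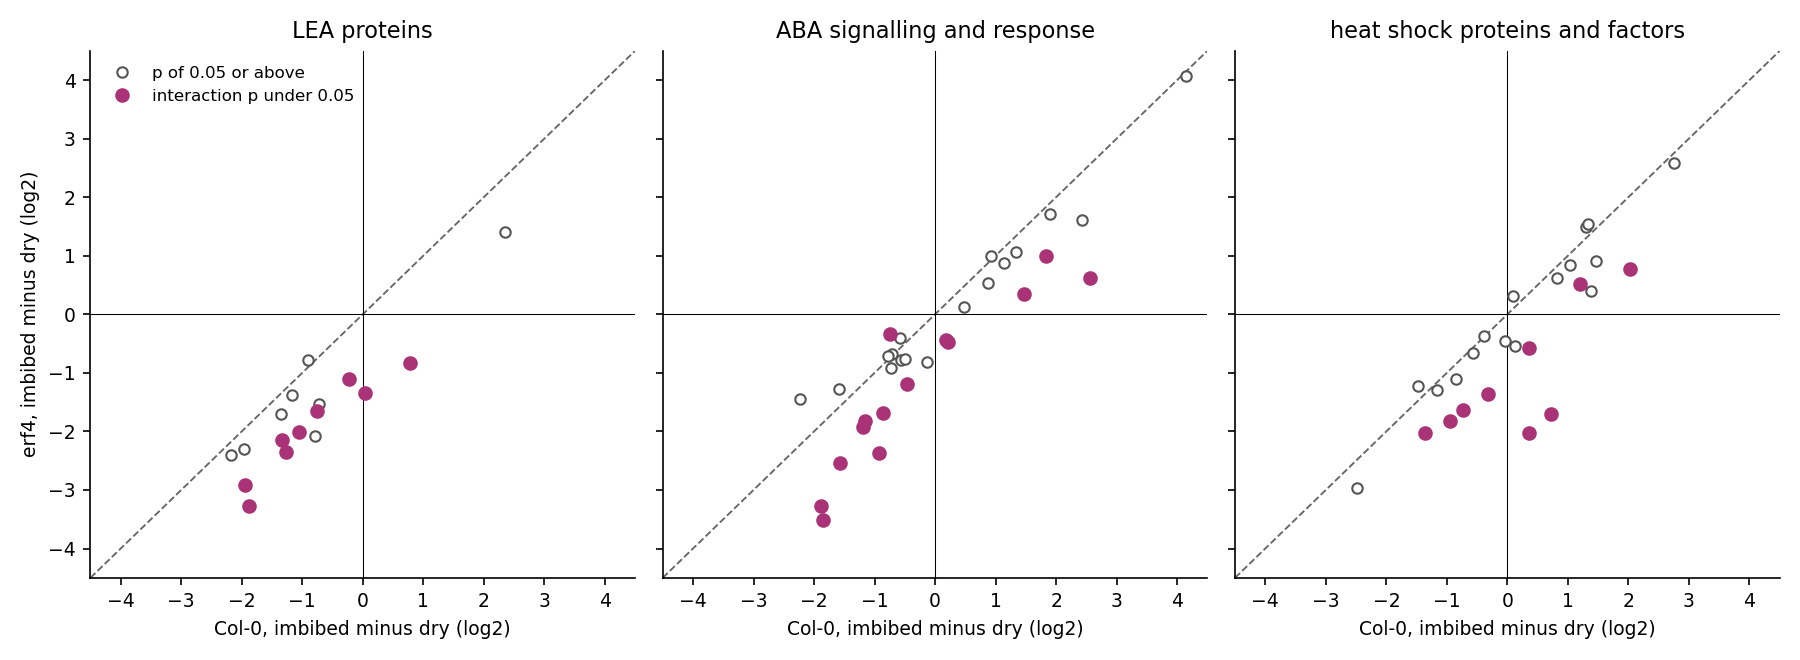
Log2 response to imbibition in Col-0 (horizontal) and in libraries labelled erf4 (vertical) for the tested members of 3 lists; filled points had an unadjusted interaction p under 0.05. The dashed line marks equal responses, and 9 LEA, 13 ABA and 9 heat shock genes lie below it as filled points. PYL6 and BIP3 lie outside the axes.

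Genes of ABA signalling were next examined by their role in the pathway. The hormone is bound by PYR/PYL receptors, which then inhibit clade A protein phosphatases (PP2Cs) and so release SnRK2 kinases that activate bZIP factors such as ABI5. Over the 32 tested genes 13 had a negative and 2 a positive interaction at an unadjusted p under 0.05 (40.6% and 6.25%, against 6.18% and 4.3% of all genes), and the median was -0.35. edgeR called none and DESeq2 2, both negative (DESeq2 called 0.578% of all genes negative). RAB18 and COR15A are in this list and among the LEA genes. The phosphatases held 7 of these 13 genes: 7 of 9 had a negative interaction at that p, with a median of -0.69, a median genotype difference of 0.22 in dry seeds and of -0.51 in imbibed seeds. In imbibed seeds 8 of the 9 had every erf4 library below every Col-0 library, against 12.7% of all genes.

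ABI2 (AT5G57050), a PP2C gene, had the smallest p among them. It stood at 92.9, 81.8 and 72.8 CPM in dry Col-0 and at 88.3, 91.8 and 104.2 CPM in dry erf4, which overlapped. After imbibition it stood at 30.8, 26.7 and 25.7 CPM in Col-0 and at 15.1, 15.01 and 18.6 CPM in erf4, which did not. The interaction was -0.97 ± 0.19 (edgeR adjusted p = 0.164; DESeq2 adjusted p = 0.00179).

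Among the other phosphatases HAI1 had the largest difference, -1.66 ± 0.41 (edgeR adjusted p = 0.25). It stood at 3.26 to 7.99 CPM in imbibed Col-0 and at 1.56 to 2.78 CPM in imbibed erf4. HAI2 rose on imbibition in Col-0, and HAI3 in both genotypes, and their interactions were -1.11 ± 0.32 and -0.84 ± 0.25 (edgeR adjusted p = 0.287 and 0.290). HAB1, a close relative of ABI1 and ABI2, was at 0.04 ± 0.19.

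Of the 9 receptor genes 3 had a negative interaction at an unadjusted p under 0.05 and 1 a positive one, with a median of -0.34. PYL7 was at -1.44 ± 0.44 and PYL1 at -1.93 ± 0.62, both of low level. PYL6, the positive one, had no count in dry erf4 and is given no fold. Of the 3 SnRK2 kinase genes SNRK2.2 was at 0.40 ± 0.17 (edgeR adjusted p = 0.443). Of the 8 transcription factor genes 1 reached that p, ABI5, the bZIP factor known to block germination. ABI5 stood at 583 to 877 CPM in dry Col-0 and at 572 to 1069 CPM in dry erf4, which overlapped. In imbibed seeds it was at 264 to 334 CPM in Col-0 and at 160 to 238 CPM in erf4, which did not, and its interaction was -0.73 ± 0.33 (edgeR adjusted p = 0.472). ABI3, a factor of seed maturation, was at -0.27 ± 0.29. Leaving out both erf4 libraries of 1 number kept the list median between -0.42 and -0.37.

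Genes of dormancy and of ABA and gibberellin metabolism were examined next. DOG1 (AT5G45830), which sets the depth of seed dormancy, stood lower in erf4 than in Col-0 by a similar amount in both states. It was at 43.9, 63.3 and 52.2 CPM in dry Col-0 and at 35.1, 31.6 and 25.1 CPM in dry erf4. After imbibition it was at 15.1, 16.3 and 25.6 CPM in Col-0 and at 11.9, 10.6 and 11.0 CPM in erf4. The genotypes did not overlap in either state, and the 2 differences, -0.80 and -0.76, were not called (edgeR adjusted p = 0.0742 and 0.149). The interaction was 0.03 ± 0.29 (edgeR adjusted p = 0.984), and its sign changed with the library left out.

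AT4G11040, a PP2C family gene known as RDO5 that promotes dormancy, had the smallest p of the 14 dormancy genes. It stood at 149 to 204 CPM in imbibed Col-0 and at 92.6 to 127 CPM in imbibed erf4, with overlap in dry seeds (interaction -1.06 ± 0.27, edgeR adjusted p = 0.25; DESeq2 adjusted p = 0.0358). At an unadjusted p under 0.05 the list had 2 negative genes (14.3%, against 6.18% of all genes), of which HAI2 is also in the ABA signalling list, and 0 positive ones, with a median of -0.19. Among 12 genes of ABA synthesis and catabolism the median was -0.42 and 10 had a negative interaction (83.3%, against 51.2% of all genes). Of these, 2 reached that p (16.7% of the list, against 6.18% of all genes), NCED6 and CYP707A2. NCED6, which makes an ABA precursor, stood at 2.55 to 4.84 CPM in imbibed Col-0 and at 0.521 to 1.53 CPM in imbibed erf4 (interaction -1.43 ± 0.50, edgeR adjusted p = 0.339). CYP707A2, which breaks ABA down, was at -0.51 ± 0.23 (edgeR adjusted p = 0.466). Among 24 gibberellin genes 1 was positive (4.17%) and 2 negative (8.33%), near the shares of all genes (4.3% and 6.18%), and the median was 0.05. GA20OX3, a synthesis gene, rose on imbibition in both, by 3.82 in Col-0 and by 2.66 in erf4 (log2), and its interaction was -1.16 ± 0.33 (edgeR adjusted p = 0.28).

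Heat shock protein and heat shock factor genes had a median interaction of -0.52 over 26 tested genes. At an unadjusted p under 0.05, 9 of 26 were negative (34.6%, against 6.18% of all genes) and none positive. For this list edgeR called 0 and DESeq2 4, all negative (DESeq2 called 0.578% of all genes negative). Unlike the LEA genes, their median in dry seeds was near 0 (-0.03), and the difference lay in imbibed seeds (-0.50). In imbibed seeds 10 of 26 had every erf4 library below every Col-0 library, against 12.7% of all genes and 10 of 21 lipid mobilisation genes. HSP17.4 (AT3G46230, chromosome 3), a small heat shock protein gene that overlaps genes on the other strand, stood at 5.69, 5.71 and 7.64 CPM in dry Col-0 and at 6.63, 23.7 and 10.8 CPM in dry erf4. After imbibition it stood at 11.1, 7.04 and 13.1 CPM in Col-0 and at 3.29, 5.79 and 3.5 CPM in erf4. The dry groups overlapped, with erf4 replicate 2 highest, and the imbibed groups did not. Its interaction was -2.42 ± 0.57 (edgeR adjusted p = 0.235; DESeq2 adjusted p = 0.0097).

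The promoter of HSP17.4 is shown with 2 heat shock elements in capitals (searched as GAANNTTC, which reads the same on both strands), 99 and 18 bases before the gene start (chr3:16984818-16985117, minus strand, TAIR10).
HSP17.4: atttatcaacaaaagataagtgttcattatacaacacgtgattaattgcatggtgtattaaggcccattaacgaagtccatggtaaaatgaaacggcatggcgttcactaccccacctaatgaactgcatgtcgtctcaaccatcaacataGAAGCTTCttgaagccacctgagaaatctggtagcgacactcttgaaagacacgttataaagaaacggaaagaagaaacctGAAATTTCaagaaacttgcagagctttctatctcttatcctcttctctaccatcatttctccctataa
These letters were in 8 of 26 promoters of the list (30.8%) and in 11.5% of all. TTCNNGAA, the other order, which can overlap it, was also in 8 of 26, against 9.11% of all. A GCC box was in 3 of the 26 (11.5%), against 2.84% of all.

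HSP90.1 and HSP70, abundant chaperone genes, differed in imbibed seeds and overlapped in dry seeds. HSP90.1 stood at 589 to 757 CPM in dry Col-0 and at 621 to 715 CPM in dry erf4. In imbibed seeds it was at 392 to 680 CPM in Col-0 and at 217 to 291 CPM in erf4 (interaction -1.05 ± 0.27, edgeR adjusted p = 0.251). HSP70 (AT3G12580) stood at 1420 to 1851 CPM in imbibed Col-0 and at 746 to 965 CPM in imbibed erf4, and at 1175 to 1492 and 1171 to 1475 CPM in dry seeds (interaction -0.93 ± 0.25, edgeR adjusted p = 0.264). The imbibed groups did not overlap for either gene. Hsp70b (AT1G16030), of similar level, stood apart in both states, at 1120 to 1360 CPM in dry Col-0 and 789 to 1040 CPM in dry erf4, and at 549 to 1090 and 218 to 387 CPM after imbibition (interaction -0.91 ± 0.37, edgeR adjusted p = 0.409). Not every member took part: HSP18.2 was at -0.13 ± 0.60, and HSP60, a chaperonin of mitochondria, at 0.20 ± 0.16. The list median was -0.69 without both erf4 libraries of number 3 and -0.40 without those of number 1, and -0.31 without dry erf4 replicate 1 alone.

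**Figure D4:**
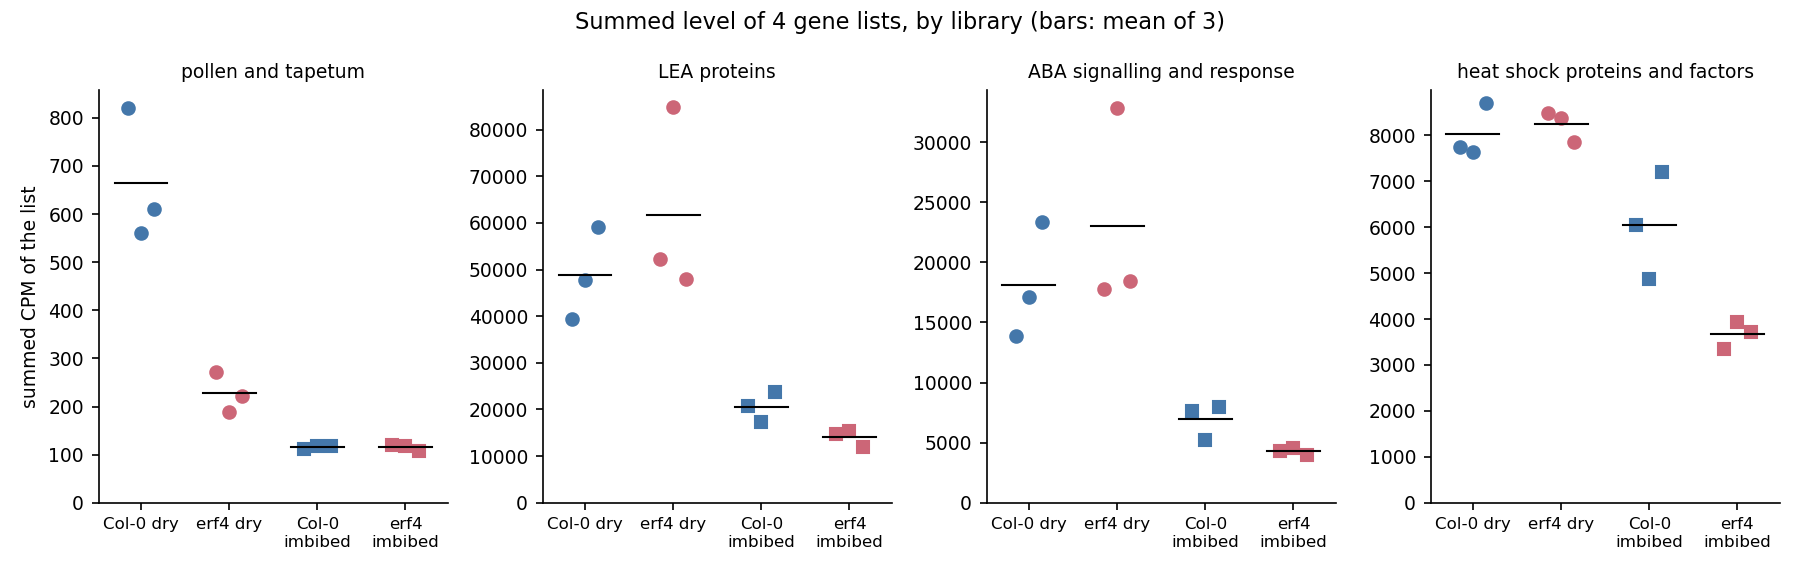
Summed CPM of all listed members of 4 gene lists in each library, with a bar at the mean of 3. Pollen and tapetum genes are high in dry Col-0 only (561 to 821 CPM), and heat shock genes are lowest in imbibed erf4 (3348 to 3940 CPM, against 4879 to 7202 CPM in imbibed Col-0).

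Transcripts known from pollen and from the tapetum, the tissue that feeds developing pollen, showed the reverse pattern, a gap between the genotypes in dry seeds and overlapping summed levels after imbibition. The list was assembled in part from the most changed genes of these libraries, so its direction is no independent evidence. Of 83 listed genes 53 were tested. No count in any of the 6 imbibed libraries was found for 22 of the 83, a share like that of all genes (8786 of 32833). An unadjusted p under 0.05 with a positive interaction was reached by 18 of 53 (34%, against 4.3% of all genes), and none had a negative one. For this list edgeR called 0 and DESeq2 8, all positive (DESeq2 called 0.473% of all genes positive). The median interaction was 1.32, and 0.71 over the 42 genes with counts in all 4 groups. In dry seeds every erf4 library stood below every Col-0 library for 31 of the 53, against 10.5% of all genes. Summed over the list, dry Col-0 held 821, 561 and 610 CPM and dry erf4 272, 189 and 221 CPM, while the imbibed libraries held 112 to 119 CPM in Col-0 and 109 to 119 CPM in erf4. A member that passed the filter on low counts through dry Col-0 had to differ, so these counts are a description only.

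sks13 (AT3G13400, chromosome 3, 4354923 to 4357482, plus strand), a multicopper oxidase-like gene of pollen, had the smallest p of the list. It stood at 130.6, 76.1 and 94.5 CPM in dry Col-0 and at 19.4, 9.24 and 14.7 CPM in dry erf4, which did not overlap. After imbibition it stood at 0.602, 1.25 and 1.14 CPM in Col-0 and at 1.92, 2.15 and 1.07 CPM in erf4, which did. The interaction was 3.56 ± 0.49 (edgeR adjusted p = 0.0723; DESeq2 adjusted p = 7.61e-10). VGDH2, a pectin methylesterase gene, stood at 13.2 to 23.58 CPM in dry Col-0, at 1.37 to 4.57 CPM in dry erf4 and at 0.049 to 0.201 CPM after imbibition. The arabinogalactan protein gene AGP11 was at 1.24 ± 0.41 (edgeR adjusted p = 0.319).

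Expansin EXPA4, of the cell wall loosening list, had a similar course in dry seeds, with 1 imbibed library apart. It stood at 7.1 to 10.6 CPM in dry Col-0 and at 1.09 to 2.38 CPM in dry erf4. In imbibed seeds it was at 0.952 to 1.14 CPM in Col-0 and at 1.58, 0.931 and 7.42 CPM in erf4, with replicate 3 far above the others. The interaction was 3.88 ± 0.86 (edgeR adjusted p = 0.225), and 2.47 without imbibed erf4 replicate 3. In that list 2 of 27 genes were positive and 2 negative at an unadjusted p under 0.05 (7.41% each, against 4.3% and 6.18% of all genes), and the median was -0.07. Without dry erf4 replicate 3 the positive count was 5 and the median 0.40.

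**Figure D5:**
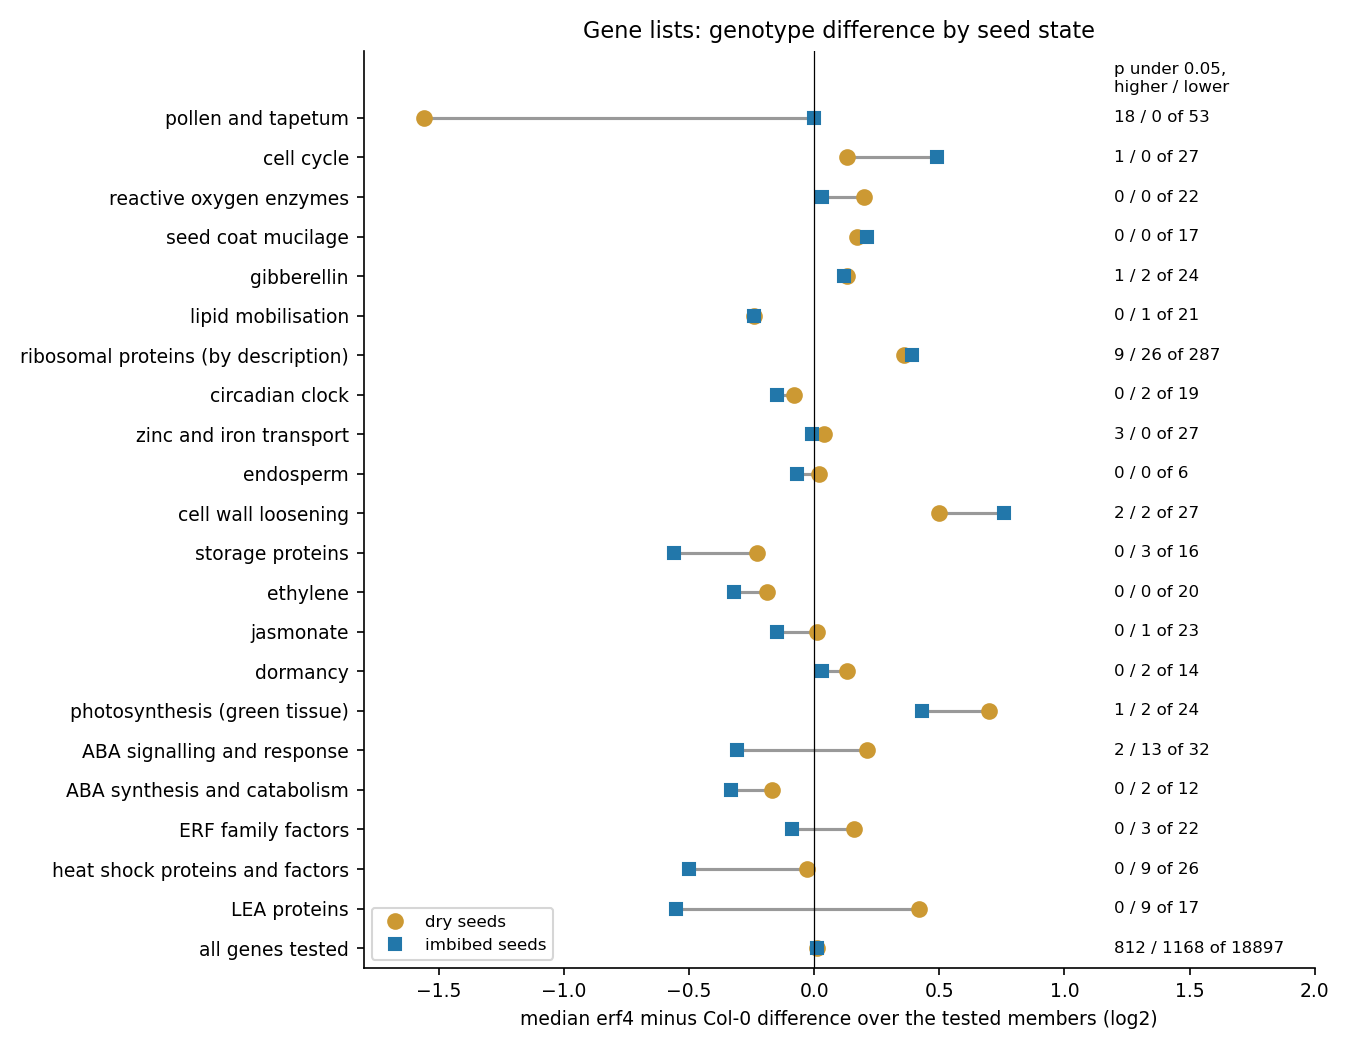
Median genotype difference (erf4 minus Col-0, log2) over the tested members of each gene list in dry seeds (circles) and imbibed seeds (squares), with the number of members at an unadjusted interaction p under 0.05, positive and negative, at the right. LEA genes move from 0.42 to -0.55 and pollen genes from -1.56 to 0, while all tested genes are at 0.01 in both.

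Ethylene and ERF family genes are the groups nearest to ERF4. Of 20 ethylene genes none reached an unadjusted p under 0.05 in either direction, and the median was -0.15 (0.02 without dry erf4 replicate 3). In imbibed seeds 10 of the 20 had every erf4 library below every Col-0 library, against 12.7% of all genes and 10 of 21 lipid mobilisation genes. The smallest p was that of ERF1, an ethylene response factor gene, at -2.03 ± 0.94 (edgeR adjusted p = 0.476), with dry libraries spread from 0.658 to 12.01 CPM. Of 22 ERF family factors 3 were negative (13.6%, against 6.18% of all genes) and none positive, with a median of -0.49, which was -0.19 without dry erf4 replicate 3. They were ERF2, ESE3 and DREB2B. ERF2 stood at 15.3 to 29.1 CPM in imbibed Col-0 and at 12.6 to 14.3 CPM in imbibed erf4 (interaction -1.49 ± 0.49, edgeR adjusted p = 0.321).

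Genes of translation had higher medians in erf4 in both states. Over 287 ribosomal protein genes the median interaction was 0.02, with a median genotype difference of 0.36 in dry and 0.39 in imbibed seeds. At an unadjusted p under 0.05, 9 were positive (3.14%, against 4.3% of all genes) and 26 negative (9.06%, against 6.18%). Without dry erf4 replicate 1 there were 52 positive and 28 negative, and without both erf4 libraries of number 1 there were 39 and 35. AT5G56670, annotated to the ribosomal protein S30 family and overlapping a gene on the other strand, had the smallest p. It stood at 13.2 to 19.1 CPM in dry Col-0 and at 30.9 to 65.6 CPM in dry erf4, and at 43.1 to 70.6 CPM over all imbibed libraries (interaction -1.65 ± 0.35, edgeR adjusted p = 0.21). RPL18AA (AT1G29970), which overlaps a gene on the same strand, stood far higher in erf4 in both states. It was at 4.76 to 5.37 CPM in dry Col-0 and at 39.9 to 56.6 CPM in dry erf4, and at 2.27 to 3.43 and 13.3 to 15.9 CPM after imbibition. Its interaction was -0.82 ± 0.26 (edgeR adjusted p = 0.301), on top of genotype differences of 3.18 and 2.36 that were called in both states (edgeR adjusted p = 4.39e-06 and 6.82e-05).

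AT1G75945, an uncharacterised gene, and HEI10 were also given whatever their values. AT1G75945 had no count in dry Col-0 and 3 to 6 counts per library in imbibed Col-0. In erf4 it stood at 5.18 to 8.2 CPM in dry and at 7.04 to 16.8 CPM in imbibed seeds. Because a group is at 0, the fitted interaction is no measure of size and its sign depends on the scale. HEI10 (AT1G53490), known as a crossover factor of meiosis, overlaps genes on both strands. It stood at 7.59 to 10.3 CPM in dry Col-0 and at 4.39 to 6.46 CPM in dry erf4, and at 13.03 to 13.7 CPM in imbibed Col-0 and 3.27 to 4.04 CPM in imbibed erf4. Thus the level went up on imbibition in Col-0 and down in erf4 (responses 0.52 ± 0.19 and -0.52 ± 0.19, edgeR adjusted p = 0.0305 and 0.0315), and the interaction was -1.04 ± 0.27 (edgeR adjusted p = 0.25; DESeq2 adjusted p = 0.0382).

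The remaining lists held few genes at an unadjusted p under 0.05. The circadian clock list had 2 negative genes of 19 (10.5%, against 6.18% of all genes) and a median of -0.01. FKF1, a blue light receptor of the clock's output that overlaps a gene on the other strand, stood at 10.3 to 12.5 CPM in dry Col-0 and at 14.9 to 16.7 CPM in dry erf4, and at 14.8 to 20.9 and 11.95 to 13.8 CPM after imbibition. Its genotypes did not overlap in either state and changed order, with an interaction of -1.07 ± 0.22 (edgeR adjusted p = 0.191; DESeq2 adjusted p = 0.00668). Of 16 storage protein genes 3 were negative (18.8%, against 6.18% of all genes): OLEO2, an oleosin, and both copies of HSD1, a steroleosin. The copies AT5G50600 and AT5G50700 are identical over 2236 bp, so that their reads could be split between them. They are thus not independent members of the list. Of 23 jasmonate genes 1 was negative (4.35%, against 6.18% of all genes), MYC3, a transcription factor of the pathway, at -0.77 ± 0.23 (edgeR adjusted p = 0.292).

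Of 21 genes of lipid mobilisation 1 was negative (4.76%, against 6.18% of all genes), IBR10, of peroxisomal breakdown, at -0.81 ± 0.27 (edgeR adjusted p = 0.321). Of 27 cell cycle genes 1 was positive (3.7%, against 4.3% of all genes), CDT1A, which licenses DNA replication, at 2.49 ± 0.92 (edgeR adjusted p = 0.369), from 0.051 to 0.346 CPM in dry seeds. The photosynthesis list, which marks green tissue, had 1 positive and 2 negative genes of 24 (4.17% and 8.33%, against 4.3% and 6.18% of all genes). LHCB6, a light-harvesting protein gene, was the one of smallest p, at 2 to 37 counts per library. Reactive oxygen enzymes (22 genes), seed coat mucilage (17) and endosperm genes (6) had none at an unadjusted p under 0.05 in either direction. Their genes of smallest p were CSD3, a superoxide dismutase, at -0.89 ± 0.42, AT4G28370, a RING protein of mucilage, at 0.51 ± 0.24, and ICE1, a factor of endosperm breakdown, at -0.22 ± 0.19.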

How the data were processed

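RNA of dry and imbibed seeds was sequenced in 12 libraries, grouped by their labels. The authors deposited raw counts per gene in whole numbers, with coordinates per the file headers. The submitters' processing notes name TAIR10 and, with no role given, DESeq2 1.34.0, featureCounts 2.0.1, HISAT2 2.1.0 and fastp 0.20.0. Whether counting used strand is not given in the sources used here, so overlapping genes are uncertain. All 32548 nuclear identifiers matched the RefSeq annotation, 32532 with the same start and end.

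After filterByExpr of edgeR 4.0.16 (R 4.3.3) had taken out low genes, libraries were TMM-scaled (CPM values too), and 1 quasi-likelihood model of the 4 group means was fitted (robust, no replicate block, 8 residual degrees of freedom). The interaction contrast was put to the quasi-likelihood test of edgeR with Benjamini-Hochberg adjustment over the 18897 genes, and a gene was called under 0.05. DESeq2 1.42.0 and limma-voom 3.58.1 were run on the same counts. Log2 values are given with their SE. The SE was derived from the quasi-likelihood F and includes the spread between libraries. Floors of 3 counts cover counting error only. Replicates correlated at r = 0.958 to 0.983 across genes and differed beyond sampling noise.

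The members and gene lists were chosen with earlier results of these data known. Lists are described by counts and medians, without a test. Genes named were 7 fixed ones, the 10 of smallest p and the member of smallest p of each list; further list members were named after their values were seen. Promoters run from 250 bases before to 50 after the gene start and were read from the RefSeq genome (nuclear TAIR10). Copies were found with BLAST 2.17.0. Alternatives were RLE factors, other filters, nuclear genes only, replicate blocks, the suffix letter of library names, other tools, thresholds and libraries left out. That letter was b for dry Col-0 replicates 1 and 2 and dry erf4 replicate 1, and r for all other libraries. The genotype difference in dry seeds is therefore partly mixed with it, and the labels do not say what it marks.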

Additional observations from a re-analysis of the deposited data

How the results depend on the processing

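The interaction called 0 genes with RLE factors, with 1 CPM in 6 libraries, with nuclear genes only, with the suffix letter as a covariate, with limma-voom, at an adjusted p under 0.01 and with a log2 of at least 1. It called 4 without a filter (IRT3, AT5G60615, AT2G26450 and AT3G61160), 4 at an adjusted p under 0.1, 191 with DESeq2, and 12 without both erf4 libraries of number 1 (0 without those of number 2 or 3). Leaving out 1 library gave 0 to 15 genes: 15 without dry erf4 replicate 1, 2 without imbibed erf4 replicate 3, and 1, IRT3, without dry Col-0 replicate 2 or imbibed erf4 replicate 2. The replicate block called 0 genes. A replicate block within each genotype called 594 of 18897 (163 positive, 431 negative), of which 139 were also called by DESeq2. Among its negative calls were 5 of 17 LEA, 5 of 26 heat shock, 6 of 32 ABA signalling and 4 of 16 storage genes, against 431 of all 18897. Of 287 ribosomal genes it called 13 positive and 9 negative, against 163 and 431 of all 18897. Among its positive calls were 3 of 53 pollen and 2 of 27 metal transport genes, against 163 of all 18897. Each other list held at most 1 call in either direction. Same-numbered dry and imbibed libraries deviated together within erf4 (r = 0.341 to 0.35) and less so within Col-0 (0.066 to 0.215). Across genotypes r was -0.277 to 0.077, which bears only on a block shared by both genotypes. The labels do not say that the numbers pair libraries within a genotype, so the block within each genotype was kept as an alternative. Within erf4 the shared deviation is a hint from the data and not from the labels. For the named genes, 810 of 871 values kept direction and side of the threshold, 53 passed it and 8 turned. DOG1 turned with the suffix letter (-0.019), without both erf4 libraries of number 3 (-0.088) and on leaving out some single libraries (-0.12 to 0.29 over all 12). AT1G75945 turned on the CPM scale (5.21). List medians over all settings were -1.01 to -0.63 for LEA, -0.47 to -0.27 for ABA signalling, -0.69 to -0.31 for heat shock and 0.65 to 1.68 for pollen genes; those of storage, ethylene, gibberellin, cell wall, lipid, metal transport, clock, mucilage, endosperm and ribosomal genes changed sign. The causes were not tested. Where a group held 0 or few counts (AT5G60615, AT1G35490, AT1G75945, PYL6), no fold could be measured at this depth.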
